A study of Mus musculus with 4 samples.

Results

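The TGF-beta ligands, their receptors and the latent binders form a family of 10 genes: the ligands Tgfb1, Tgfb2 and Tgfb3, the receptors Tgfbr1, Tgfbr2 and Tgfbr3, and the latent binding proteins Ltbp1, Ltbp2, Ltbp3 and Ltbp4. H3K27ac, the acetylation of lysine 27 of histone H3, was described at these 10 of the 21757 protein-coding genes of the GRCm39 annotation. The genes were chosen by name for their place in the pathway. Of the H3K27ac intervals of each list, 113 of 40899 (limb EGFP+), 119 of 34360 (limb EGFP-), 96 of 36231 (trunk EGFP+) and 106 of 30716 (trunk EGFP-) lay in the gene bodies or within 100 kb of their start sites. An interval is a stretch of the genome over which the caller found more ChIP-seq reads than in its surroundings.

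The 4 lists come from E14.5 mouse fetuses that carry a Col2a1-EGFP sensor, with 1 library for each combination of tissue (limb or trunk) and GFP status. The peak names of the trunk EGFP- list carry another replicate number than its label, and the list was used as labelled. The fetuses were grown by tetraploid aggregation from G4 embryonic stem cells of 1 homozygous clone, in which a minimal β-globin promoter with EGFP stands upstream of Col2a1 and reads that gene's regulatory input. Every group shares this genotype, so the EGFP- cells are not from a wild-type animal. Cells were pooled from several limbs or trunks, and whether the EGFP+ and EGFP- libraries share fetuses is not given in the sources used here. The limbs held all segments of fore- and hindlimbs, and the trunk reached from neck to tail without its internal organs. Because each population is 1 library, no test between populations was made. The spread between replicates is unknown, and tissue and sequencing lane cannot be told apart.

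TGF-beta ligands are secreted in a latent form, held by their own propeptide and tied through latent binding proteins to the extracellular matrix, from which integrins and other activators free them. The freed ligand binds the type II receptor Tgfbr2, which recruits and phosphorylates the type I receptor Tgfbr1, and SMAD proteins then carry the signal to the nucleus. Tgfbr3 (betaglycan) is a coreceptor that presents ligand, in particular TGF-beta2, to the signalling receptors. In the developing skeleton the pathway is known for its part in mesenchymal condensation, in the growth plate, and in joints and tendons. H3K27ac marks active promoters and enhancers.

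The labels were checked at marker promoters, a promoter window being 2 kb upstream to 500 bp downstream of any protein-coding start site. Of 8 chondrocyte markers, 8 were marked in each EGFP+ list, against 3 in limb EGFP- and 2 in trunk EGFP-, while epithelial (0 of 4), endothelial (0 to 1 of 4), blood (0 of 3), muscle (0 to 1 of 5) and neural markers (0 to 1 of 3) were rarely marked in any list. Connective tissue markers were marked at 2 of 5 in every list and osteoblast markers at 2, 1, 2 and 0 of 2. The connective tissue genes differed: Col3a1 was marked in every list, Dcn in both EGFP- lists alone, Kera in limb EGFP+ and Scx in trunk EGFP+. The endothelial marker Tek was also marked in both EGFP- lists alone. The defining markers of most other cell types of these tissues were therefore not marked in the EGFP- lists. The called summits had medians of 26, 24, 26 and 26 reads in limb EGFP+, limb EGFP-, trunk EGFP+ and trunk EGFP-, and none was below 7 reads. The library background was 1.49, 1.63, 1.60 and 1.83 reads, higher in the EGFP- library of each tissue, and its part in the counts was not tested. Hence an absent interval means that none was called at this depth. Values below are given in this order of the lists. Fewer cells that carry a mark and less of it per cell cannot be told apart.

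Over the 10 genes, the family was marked in all 4 populations, and more distal intervals were called in EGFP- than in EGFP+ cells of both tissues. Over the whole genome the order was the opposite, with 22833, 17768, 19295 and 14231 distal intervals. The order of the family turned at a −log10 q of at least 5 but not among the 20000 strongest intervals of each list. In limb it rested on Tgfbr3, with 11 distal intervals in EGFP+ and 28 in EGFP-, and turned when that gene was left out. An own promoter was marked at 8, 8, 6 and 7 of the 10 genes, where 54.4%, 51.6%, 52.6% and 52.7% of 21581 protein-coding genes had one. The same 6 genes (Tgfb3, Tgfbr1, Tgfbr2, Tgfbr3, Ltbp1 and Ltbp3) were marked in all 4 lists, as were 47.4% of all genes. Marked promoters numbered 7, 6, 6 and 6 at a −log10 q of at least 5. Among the 20000 strongest intervals of each list they were those 6 genes in every list. Distal intervals, those outside every promoter window, numbered 74, 81, 61 and 70. Of these, 36, 42, 24 and 30 (48.6%, 51.9%, 39.3% and 42.9%) were not overlapped by any interval of the other sort fraction from that tissue, and are called EGFP+-only or EGFP--only. The corresponding shares of all distal intervals were 68.5%, 56.6%, 69.1% and 57.3%. EGFP+-only intervals were thus fewer than EGFP--only ones in both tissues, but both orders depended on how weak calls were removed. In limb both also turned without Tgfbr3, which had 2 EGFP+-only and 18 EGFP--only intervals. At a −log10 q of at least 5, EGFP+ and EGFP- lists had 44 and 37 distal intervals in limb and 41 and 31 in trunk, with 21 EGFP+-only against 14 EGFP--only in limb and 20 against 8 in trunk. Among the 20000 intervals of each list with the highest −log10 p, they had 22 and 29 distal intervals in limb and 28 and 36 in trunk, with 7 against 12 and 9 against 15 in 1 fraction alone.

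The 3 roles differed in which limb fraction held more distal intervals, a difference made largely by 1 gene of each. Ligands had 15 in limb EGFP+ and 8 in limb EGFP-, of which 10 and 3 (66.7% and 37.5%) were in that fraction alone. Receptors had 21 and 43, of which 6 and 27 (28.6% and 62.8%) were in that fraction alone. Latent binders had 38 and 30, of which 20 and 12 (52.6% and 40.0%) were in that fraction alone. All distal intervals numbered 22833 in limb EGFP+ and 17768 in limb EGFP-, of which 68.5% and 56.6% were in that fraction alone. Among the 20000 strongest intervals of each list the counts in 1 fraction alone were 1 and 0 for ligands, 1 and 5 for receptors, and 5 and 7 for latent binders, whose order thus turned. In trunk the counts were closer, with 9 and 12 for ligands, 25 and 28 for receptors and 27 and 30 for latent binders. In each role 1 gene had the largest difference in limb, namely Tgfb2 (8 in EGFP+ and 2 in EGFP-), Tgfbr3 (11 and 28) and Ltbp1 (11 and 4). Without that gene, the limb counts of each role were closer. At the level of single genes, 37.2% of all protein-coding genes had more EGFP+-only than EGFP--only distal intervals in limb and 21.9% had fewer; among the 10 genes these were 4 and 4. In trunk, 36.6% of all genes had more and 20.6% had fewer; here these were 2 and 4.

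**Figure D1:**
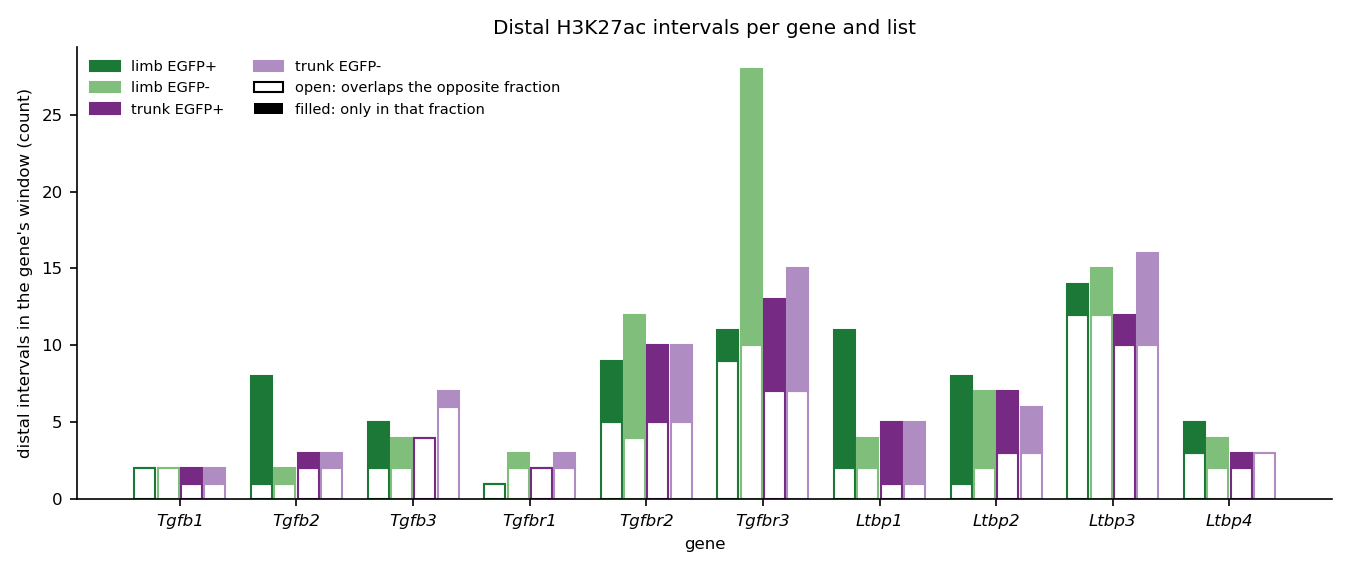
Distal H3K27ac intervals in the window of each gene (count, vertical axis) for the 4 lists, with filled parts for intervals only in that fraction of its tissue and open parts for those that overlap the opposite fraction. Tgfbr3 had 28 intervals in limb EGFP- against 11 in limb EGFP+, whereas Tgfb2 (8 against 2) and Ltbp1 (11 against 4) had more in limb EGFP+.

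Overlapping distal intervals of the 4 lists were joined into 133 regions in these windows, out of 43885 in the genome. Regions marked in all 4 lists made up 24 of them (18.0%), against 10.3% of all regions. Regions marked in both EGFP+ lists and in no EGFP- list numbered 6 (4.51%), against 10.8%. Regions marked in both EGFP- lists alone numbered 10 (7.52%), against 4.58%. A further 64 regions (48.1%) were marked in 1 list alone, against 61.9%. Ltbp3 held 8 of the 24 regions marked in all 4 lists and Tgfbr3 held 5. Some of the 24 lay in the promoter window of a long noncoding RNA gene, at Tgfb2, Tgfbr2, Tgfbr3 and Ltbp3. Others lay just past the gene's own start, as at Ltbp3 and Ltbp4. Of the distal intervals, 14 of 74, 17 of 81, 13 of 61 and 19 of 70 lay in a promoter window of a long noncoding RNA gene. That share was not computed over the genome. The 6 regions of both EGFP+ lists belonged to Ltbp1 (3), Tgfb2 (1), Tgfbr2 (1) and Tgfbr3 (1), and the 10 regions of both EGFP- lists to Tgfbr3 (5), Tgfbr2 (1), Ltbp2 (2) and Ltbp3 (2).

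**Figure D2:**
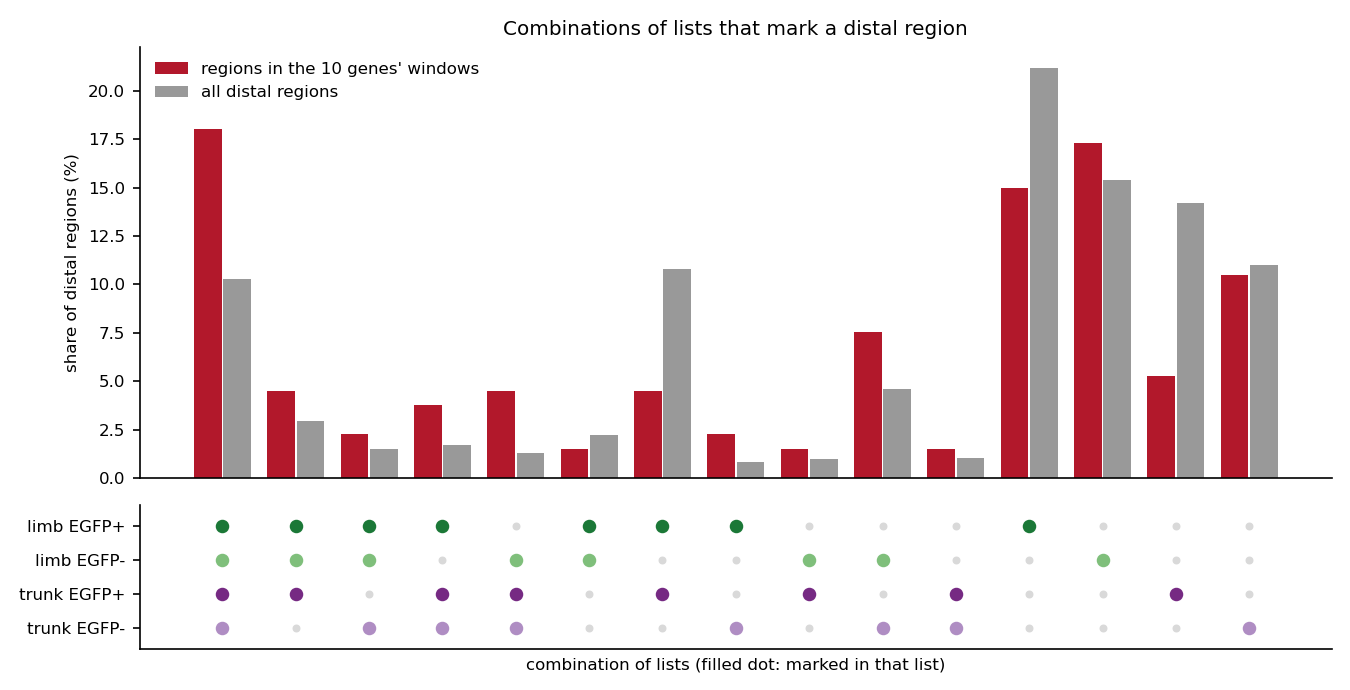
Share of distal regions (%, vertical axis) for each combination of lists, with filled dots under a bar for the lists that mark it, for the 133 regions at the 10 genes and for all 43885 regions. Regions marked in all 4 lists made up 18.0% at these genes and 10.3% of all, and regions of both EGFP+ lists alone 4.51% and 10.8%. Distal is by protein-coding start sites, and some regions lay at starts of long noncoding RNA genes.

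The sequences below are those of the regions called in the same fraction of both tissues and in neither opposite list, ranked by the lower of their limb and trunk −log10 p: the first 3 of EGFP+ cells, then the first 2 of EGFP- cells. Each is 300 bases of the GRCm39 reference around the strongest summit, on the plus strand, and overlaps no protein-coding exon. They are reference sequence and not read from the sorted cells. Capitals mark matches on either strand to CAGAC (the short SMAD element), ACAAAG or ACAATG (SOX) or TGANTCA (AP-1).
Tgfb2 intron, both EGFP+ lists, chr1:186363507-186363806: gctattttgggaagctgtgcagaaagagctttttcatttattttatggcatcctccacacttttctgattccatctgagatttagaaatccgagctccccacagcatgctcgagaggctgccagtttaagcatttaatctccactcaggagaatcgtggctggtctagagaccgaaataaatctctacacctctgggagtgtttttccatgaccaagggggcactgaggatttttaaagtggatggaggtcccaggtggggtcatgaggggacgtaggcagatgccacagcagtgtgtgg
Ltbp1 upstream, both EGFP+ lists, chr17:75293340-75293639: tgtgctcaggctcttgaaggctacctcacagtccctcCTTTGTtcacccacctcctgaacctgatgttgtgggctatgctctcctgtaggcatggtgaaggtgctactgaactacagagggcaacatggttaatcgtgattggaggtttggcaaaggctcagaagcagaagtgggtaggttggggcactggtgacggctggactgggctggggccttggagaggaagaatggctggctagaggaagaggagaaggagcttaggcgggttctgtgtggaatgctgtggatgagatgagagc
Tgfbr3 intron, both EGFP+ lists, chr5:107304885-107305184: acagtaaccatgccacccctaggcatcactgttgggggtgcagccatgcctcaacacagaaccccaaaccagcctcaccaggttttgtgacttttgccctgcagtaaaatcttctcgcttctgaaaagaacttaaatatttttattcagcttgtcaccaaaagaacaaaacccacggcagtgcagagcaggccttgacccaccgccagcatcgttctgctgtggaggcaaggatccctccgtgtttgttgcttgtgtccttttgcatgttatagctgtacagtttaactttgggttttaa
Tgfbr2 intron, both EGFP- lists, chr9:115945478-115945777: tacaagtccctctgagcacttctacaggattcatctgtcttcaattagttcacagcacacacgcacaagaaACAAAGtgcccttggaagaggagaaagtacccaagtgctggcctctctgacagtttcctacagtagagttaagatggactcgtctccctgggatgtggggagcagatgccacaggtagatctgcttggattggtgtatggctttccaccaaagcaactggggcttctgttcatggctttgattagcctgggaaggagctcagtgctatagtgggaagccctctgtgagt
Tgfbr3 intron, both EGFP- lists, chr5:107370325-107370624: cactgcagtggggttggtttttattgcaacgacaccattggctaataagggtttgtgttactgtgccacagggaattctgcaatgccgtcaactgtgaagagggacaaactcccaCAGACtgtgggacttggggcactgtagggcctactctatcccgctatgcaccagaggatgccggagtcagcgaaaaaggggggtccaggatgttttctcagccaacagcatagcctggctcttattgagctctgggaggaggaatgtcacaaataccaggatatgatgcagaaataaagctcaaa

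The capitals are 1 ACAAAG match on the minus strand of the Ltbp1 region, 1 on the plus strand of the Tgfbr2 region, and 1 CAGAC match on the plus strand of the second Tgfbr3 region. No match overlaps another, and the Tgfb2 region and the first Tgfbr3 region hold none. Over windows of the same length, CAGAC was present in 56.4% of the 133 regions and in 57.6% of the 43881 windows of all distal regions. ACAAAG was present in 28.6% and 25.4%, ACAATG in 15% and 13.2%, and TGANTCA in 11.3% and 8.39%. A SOX match of either kind was present in 41.4% and 35.3%. These are matches of letters and not sites of binding.

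Among the ligands, the Tgfb3 promoter was marked in all 4 lists and those of Tgfb1 and Tgfb2 in 1 list each. Tgfb3 (chr12:86102756-86126301, minus strand) encodes a ligand known for palate and tendon development. Its promoter summit had 115, 97, 99 and 93 reads, in the first exon, untranslated there, and lay above 93.0%, 94.5%, 90.9% and 96.7% of all intervals of its list by −log10 p. The 4 counting intervals overlap. A second promoter interval at +0.854 kb had 106 reads in limb EGFP+ (95% interval, 86.8 to 128) against 60 in limb EGFP- (45.8 to 77.2), which do not overlap. The caller's local background there was 20.6 and 15.5 reads. Here and below, intervals are exact Poisson ones for the reads at 1 summit, and cover counting error only.

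Tgfb3 had 5, 4, 4 and 7 distal intervals. The region at +42 kb, downstream of the gene, was marked in all 4 lists with 13, 13, 21 and 31 reads, and that at +78.4 kb with 45, 34, 47 and 30 reads. Both lie in the neighbouring gene Ttll5. A region at −79.0 kb, in Ift43, was marked in limb EGFP-, trunk EGFP+ and trunk EGFP- but not in limb EGFP+, with 17, 13 and 21 reads.

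Tgfb2 (chr1:186354985-186438294, minus strand) encodes the ligand that depends most on betaglycan. Within its promoter window an interval was called in limb EGFP- alone, with 28 reads and a −log10 p of 6.70. An interval of over 1 kb across the first coding exon, 1.48 to 1.80 kb past the start site and so distal by the rule, was present in all 4 lists. It had 47, 42, 53 and 38 reads, widths of 1187, 1276, 1264 and 1143 bp, and lay above 84.7%, 87.6%, 94.8% and 83.8% of the distal intervals of its list. It also lay in the start window of the long noncoding RNA gene Gm29491, so its acetylation cannot be assigned to Tgfb2 alone.

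Further from its start, Tgfb2 was marked in limb mostly in EGFP+ cells. Of 8, 2, 3 and 3 distal intervals, 7, 1, 1 and 1 were in that fraction alone, and 6 of the 7 limb EGFP+-only ones lay in introns. They had 13 to 32 reads. The intronic region at +74.6 kb, whose sequence is given above, was the strongest, with 26 reads (−log10 p of 11.3) in limb EGFP+ and 21 reads (9.15) in trunk EGFP+ and no interval in the EGFP- lists. Intervals at +29.5 kb, +64.5 kb and +65.3 kb, with 20, 14 and 13 reads, were called in limb EGFP+ alone. The count of 7 against 1 in limb was 2 against 0 at a −log10 q of at least 5, and 1 against 0 among the 20000 intervals of highest −log10 p of each list. It was 5 against 1 when neighbouring intervals were merged.

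Tgfb1 (chr7:25386390-25404506, plus strand) encodes the most widely expressed ligand, and its neighbourhood holds 10 other genes. Its promoter window was marked in limb EGFP+ alone, with 18 reads (95% interval, 10.7 to 28.4) at +0.587 kb, and an interval of trunk EGFP- with 16 reads at +0.673 kb lay just past the end of that window. It had 2 distal intervals in every list. The strongest, at +95 kb in the gene Axl, was marked in all 4 lists with 37, 29, 44 and 38 reads and is assigned to Tgfb1 by distance only.

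**Figure D3:**
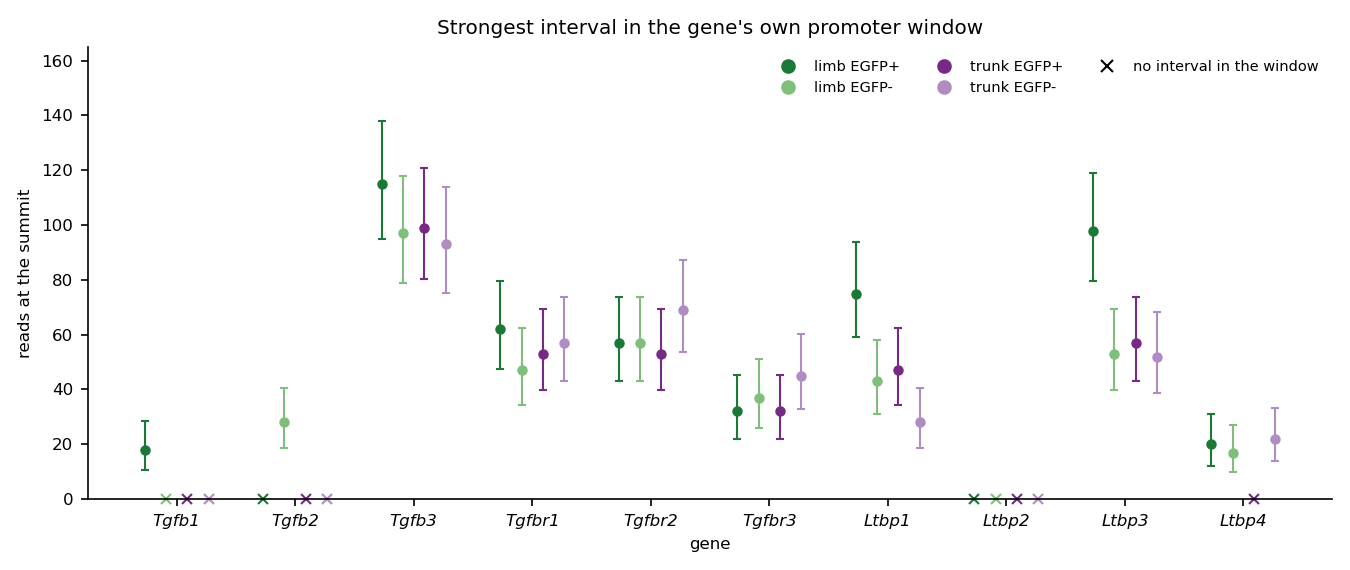
Reads at the summit of the strongest interval in the own promoter window of each gene (vertical axis) in the 4 lists, with exact Poisson 95% intervals and crosses for no interval. The summits of Tgfb3 had 93 to 115 reads in the 4 lists, Ltbp1 and Ltbp3 stood highest in limb EGFP+ with 75 and 98 reads, and Ltbp2 had none.

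All 3 receptor promoters were marked in all 4 populations, with counting intervals of the summits that overlapped between the fractions of each tissue. Tgfbr1 (chr4:47353134-47414931, plus strand), the type I receptor kinase, had 62, 47, 53 and 57 reads upstream of its start. Tgfbr2 (chr9:115913361-116004800, minus strand), the type II receptor kinase, had 57, 57, 53 and 69 reads in its first exon. Tgfbr3 (chr5:107249402-107437623, minus strand), the coreceptor, had 32, 37, 32 and 45 reads, the lowest of the 3 in every list.

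Tgfbr1 had few distal intervals, 1, 3, 2 and 3. The region at +84.8 kb, downstream of the gene and nearest to the start of Alg2, was marked in all 4 lists with 31, 31, 18 and 37 reads. The others were in EGFP- cells, 12 reads at −67.9 kb in limb and 9 reads at −58.7 kb in trunk, both nearest to the start of Col15a1. The first also lay in the start window of the long noncoding RNA gene Gm68364. No region inside the gene body was called as distal.

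Tgfbr2 had 9, 12, 10 and 10 distal intervals, of which 4, 8, 5 and 5 were in that fraction alone. Upstream regions at −43.7 kb and −77.7 kb were marked in all 4 lists. At −43.7 kb the strongest summits had 34, 41, 24 and 23 reads. Downstream of the start, the interval at +0.9 kb over coding exon sequence had 53, 64 and 76 reads in limb EGFP-, trunk EGFP+ and trunk EGFP-, and in limb EGFP+ was part of a promoter interval 1625 bp wide. In the former lists it also lay in the start window of the long noncoding RNA gene Gm4668.

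Intronic regions of Tgfbr2 included 1 of both EGFP- lists alone and 1 of both EGFP+ lists alone. The region at +59.2 kb, whose sequence is given above, had 23 reads in limb EGFP- and 19 in trunk EGFP- and was in neither EGFP+ list. The region at +76.1 kb had 12 reads in limb EGFP+ and 15 in trunk EGFP+ and was in neither EGFP- list. Regions near +37 kb and +53.2 kb were marked in limb EGFP-, trunk EGFP+ and trunk EGFP-, with 15 to 25 reads. The limb count of 4 against 8 was 3 against 3 at a −log10 q of at least 5.

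Tgfbr3 had more distal intervals in limb EGFP- cells than nearly any gene. It had 11, 28, 13 and 15, so that limb EGFP- held 9.71 per 100 kb of its 288 kb window, a density that 0.0414% of genes reached in that list. Only 2 genes, Tgfbr3 included, had as many. In the other lists its densities of 3.82, 4.51 and 5.20 per 100 kb were reached by 6.83%, 2.62% and 0.735% of genes. Of the 28 limb EGFP- intervals 21 lay in introns. In that fraction alone were 2, 18, 6 and 8.

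The 18 limb EGFP--only intervals of Tgfbr3 had 9 to 31 reads, with a median of 18. Their median place by −log10 p was above 33.4% of the distal intervals of the list, so by that measure they were weaker than most. That measure sets reads against the local background. At the distal intervals of Tgfbr3 the median background was 4.98 reads over the 28 of limb EGFP- and 4.02 over the 11 of limb EGFP+. Where intervals of both limb fractions overlapped, the background was higher in EGFP- at every pair. It was 8.28 against 4.04 reads at +132 kb, 12.5 against 6.26 at +122 kb and 10.8 against 7.90 at +88.8 kb. The part of the background was not tested. The 18 intervals were narrow neighbours in part: the count was 11 against 1 in limb EGFP+ when intervals of a list within 500 bp were merged. At a −log10 q of at least 5 the limb counts were 5 against 1 for EGFP- and EGFP+, and among the 20000 strongest intervals of each list 3 against 1. EGFP--only intervals outnumbered EGFP+-only ones in limb in each of the 9 alternatives tried. In trunk, 8 EGFP--only against 6 EGFP+-only turned to 2 against 6 at a −log10 q of at least 5.

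The strongest regions of Tgfbr3 were shared by both fractions. Intronic regions at +88.6 kb and +122 kb were marked in all 4 lists. At +88.6 kb the summits had 41, 39, 28 and 37 reads, and at +122 kb 35, 47, 29 and 46 reads. The region at −69.9 kb, upstream, was also in all 4 lists, with 29, 29, 22 and 20 reads. It lay in the gene Brdt, whose start is the nearest, and in the start window of the long noncoding RNA gene Gm71444. It is assigned to Tgfbr3 by distance only.

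Of the 5 regions of both EGFP- lists at Tgfbr3, the one at +67.1 kb given above had 27 reads in limb and 25 in trunk, and that at +20.5 kb had 17 and 28. The others lay at +67.8 kb, +138 kb and −6.58 kb. Those at +67.1 kb and +67.8 kb also lay in the start window of the long noncoding RNA gene Gm72990, so their acetylation cannot be assigned to Tgfbr3 alone. The 1 region of both EGFP+ lists, at +133 kb and also given above, had 17 reads in limb and 20 in trunk. Regions of both kinds thus lay in introns of the same gene.

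**Figure D4:**
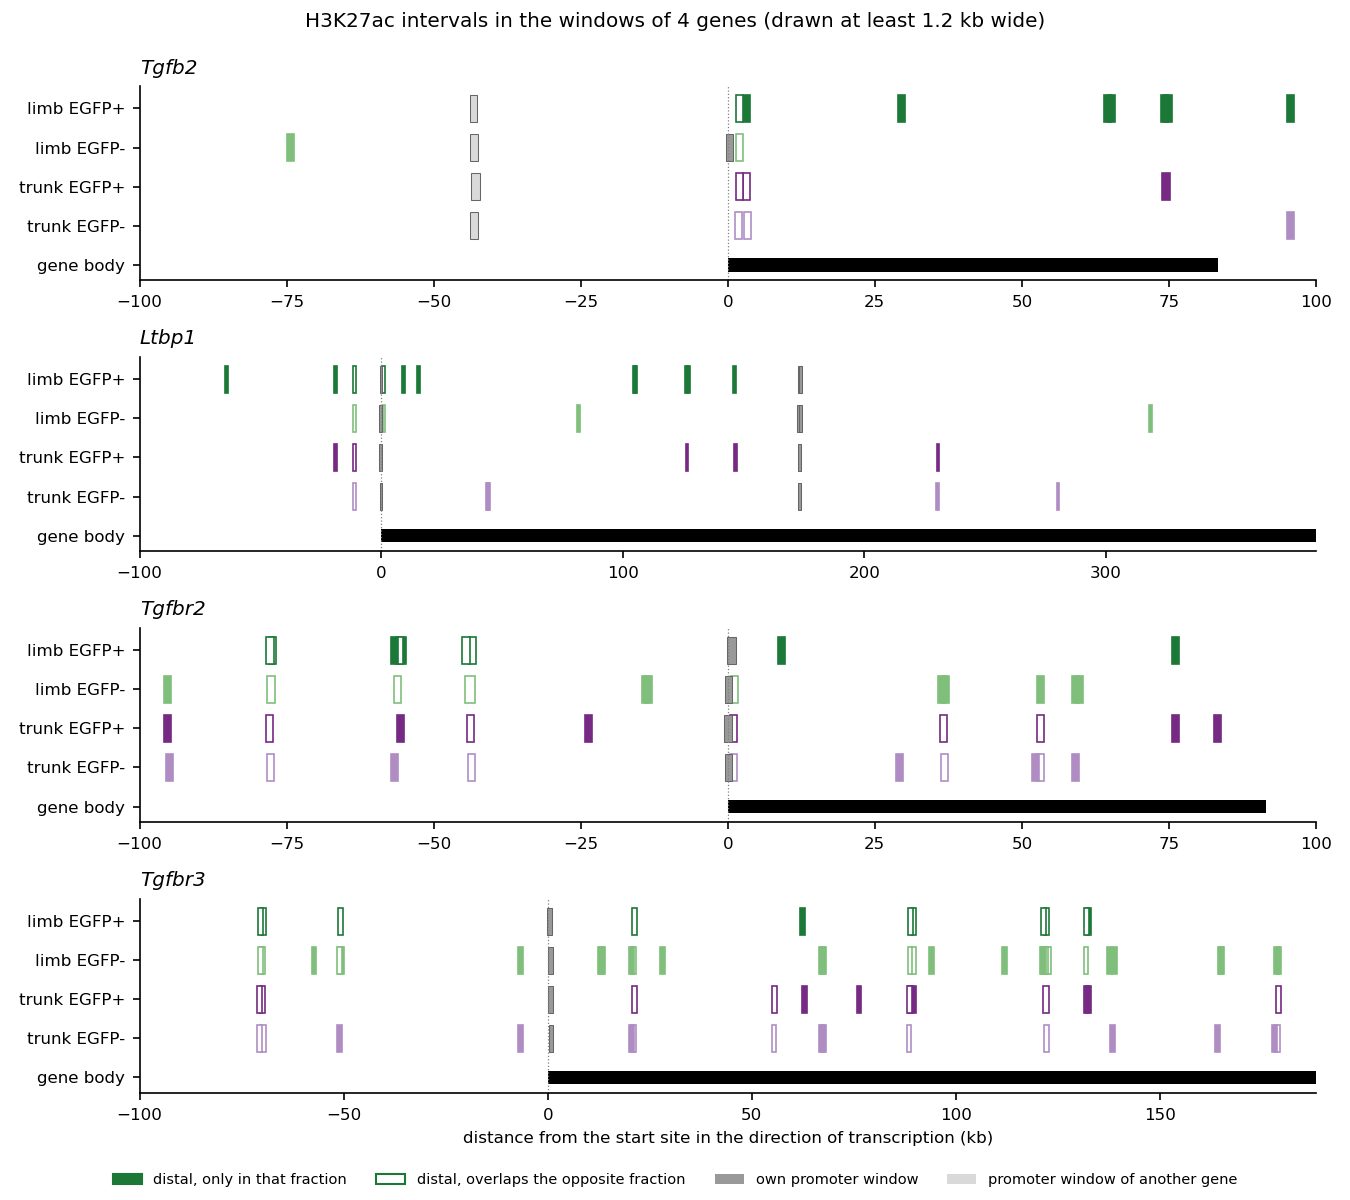
H3K27ac intervals of the 4 lists at Tgfb2, Ltbp1, Tgfbr2 and Tgfbr3 against the distance from the start site in the direction of transcription (kb), filled where only in that fraction of the tissue, open where the opposite fraction overlaps, and grey in promoter windows. The 18 limb EGFP--only intervals of Tgfbr3 are spread over the gene, and the filled limb EGFP+ intervals of Tgfb2 (7) and Ltbp1 (9) lie mostly in their introns.

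Among the latent binders, Ltbp1 and Ltbp3 had promoters with more reads in limb EGFP+ than in limb EGFP- cells, and Ltbp1 also had more distal intervals there. Ltbp1 (chr17:75312519-75699507, plus strand) encodes a protein that tethers latent TGF-beta to fibrillin-rich matrix, and no other protein-coding gene lies in its 487 kb window. Its promoter summit had 75 reads (95% interval, 59.0 to 94.0) in limb EGFP+ and 43 (31.1 to 57.9) in limb EGFP-, which do not overlap. In trunk the values were 47 (34.5 to 62.5) and 28 (18.6 to 40.5), which do overlap. The caller's local background there was 9.34 and 5.82 reads in limb and 4.90 and 4.18 in trunk. An internal promoter at +173 kb was marked in all 4 lists with 23, 22, 17 and 22 reads.

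Ltbp1 had 11, 4, 5 and 5 distal intervals, of which 9, 2, 4 and 4 were in that fraction alone. In limb EGFP+ that was 2.26 per 100 kb of its long window, a density that 18.0% of genes reached. One region was in all 4 lists, 11 kb upstream, with 41, 28, 20 and 21 reads and widths of 1215, 997, 979 and 1046 bp. The 3 regions of both EGFP+ lists lay at −19.0 kb (given above), +127 kb and +146 kb. At −19.0 kb both lists had 15 reads. At +127 kb limb EGFP+ had 29 reads (−log10 p of 14.7), the strongest of its EGFP+-only intervals, and trunk EGFP+ 10 reads (4.37). At +146 kb the values were 16 and 13 reads. The limb count of 9 against 2 was 3 against 1 at a −log10 q of at least 5, 7 against 2 after merging, and 1 against 1 among the 20000 strongest intervals.

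Ltbp3 (chr19:5790932-5808669, plus strand) encodes a latent binder known for its part in bone and tooth formation. Its promoter and first exons held most of the differences in reads between fractions that exceeded counting error in this family. The summit at +0.675 kb had 98 reads (79.6 to 119) in limb EGFP+ and 53 (39.7 to 69.3) in limb EGFP-, and 57 and 52 in trunk. The interval at the start itself, at −0.048 kb, had 64 reads (49.3 to 81.7) against 25 (16.2 to 36.9) in limb, 38 in trunk EGFP+ and was not called in trunk EGFP-. Over the next coding exons, the interval at +1.2 kb had 90 reads (72.4 to 111) against 45 (32.8 to 60.2) in limb and 67 (51.9 to 85.1) against 37 (26.1 to 51.0) in trunk. The interval at +1.67 kb had 70 reads (54.6 to 88.4) against 23 (14.6 to 34.5) in limb, and 47 against 26 in trunk, where the intervals overlap. These summits are neighbours, and the caller's local background there was also higher in limb EGFP+, 14.6 to 14.7 reads against 7.06 to 7.40. At +0.675 kb the fold over that background was 6.31 in limb EGFP+ and 6.59 in limb EGFP-. At +1.67 kb the place by −log10 p was above 77.6% and 23.2% of all intervals of the list. The part of the background was not tested.

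Ltbp3 had 14, 15, 12 and 16 distal intervals, most of them in both fractions: 2, 3, 2 and 6 were in that fraction alone. Its window holds 10 other protein-coding genes, and the distal interval with the most reads, at +62.2 kb with 130, 116, 94 and 98 reads, lay at the long noncoding RNA gene Malat1. Distal here is by protein-coding start sites. Counting start sites of long noncoding RNAs as well, 7, 9, 8 and 10 of the distal intervals of Ltbp3 lay in a promoter window. The trunk count of 2 EGFP+-only against 6 EGFP--only was 3 against 2 at a −log10 q of at least 5, and 0 against 0 among intervals whose nearest start site is that of Ltbp3.

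Ltbp2 (chr12:84829986-84923306, minus strand), a matrix protein of the same family that is known not to bind latent TGF-beta, had no promoter interval in any list. It had 8, 7, 7 and 6 distal intervals and no region in all 4 lists. In limb EGFP+ alone, intronic intervals at +28.6 kb and +15 kb had 31 and 26 reads, with trunk intervals of 26 and 17 reads at +28.6 kb in both fractions. In limb EGFP-, an upstream interval at −30.5 kb had 26 reads (−log10 p of 15.4), and trunk EGFP+ had 13 reads (4.65) there. The adjoining region at −31.0 kb was marked in limb EGFP-, trunk EGFP+ and trunk EGFP-, with 20, 18 and 23 reads, and not in limb EGFP+.

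Ltbp4 (chr7:27004086-27037117, minus strand), a latent binder of elastic tissues, had weak promoter intervals: 20 reads at +0.257 kb in limb EGFP+, and, at an internal start, 17 reads in limb EGFP- and 22 in trunk EGFP-. None was called in trunk EGFP+. Regions in its introns at +1.4 kb and +6.5 kb were in all 4 lists. At +1.4 kb the summits had 49, 39, 29 and 24 reads. With promoter windows reaching 3 kb downstream, a choice made after seeing the data, 9 of the 10 genes had a promoter interval in each list: Tgfb1 in trunk EGFP+ and Ltbp2 in the other 3 lists were without one.

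Where intervals of the 2 fractions overlapped, reads at the summit could be set side by side, without regard to their local background. At own promoters and distal regions of these genes there were 49 such pairs in limb and 46 in trunk. The EGFP+ summit was higher, with counting intervals apart, in 6 limb pairs and 1 trunk pair, and the EGFP- summit in 0 of either. Of all overlapping pairs in the genome, 10.5% in limb and 2.76% in trunk had a higher EGFP+ summit, and 1.79% and 1.72% a higher EGFP- summit, so these counts are near the background. The 6 limb pairs were 4 neighbouring ones of Ltbp3, 1 of Ltbp1 and 1 of Tgfb3, and the trunk pair was that of Ltbp3 at +1.2 kb. All of them lay within 2 kb of a start site, and none at a receptor.

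**Figure D5:**
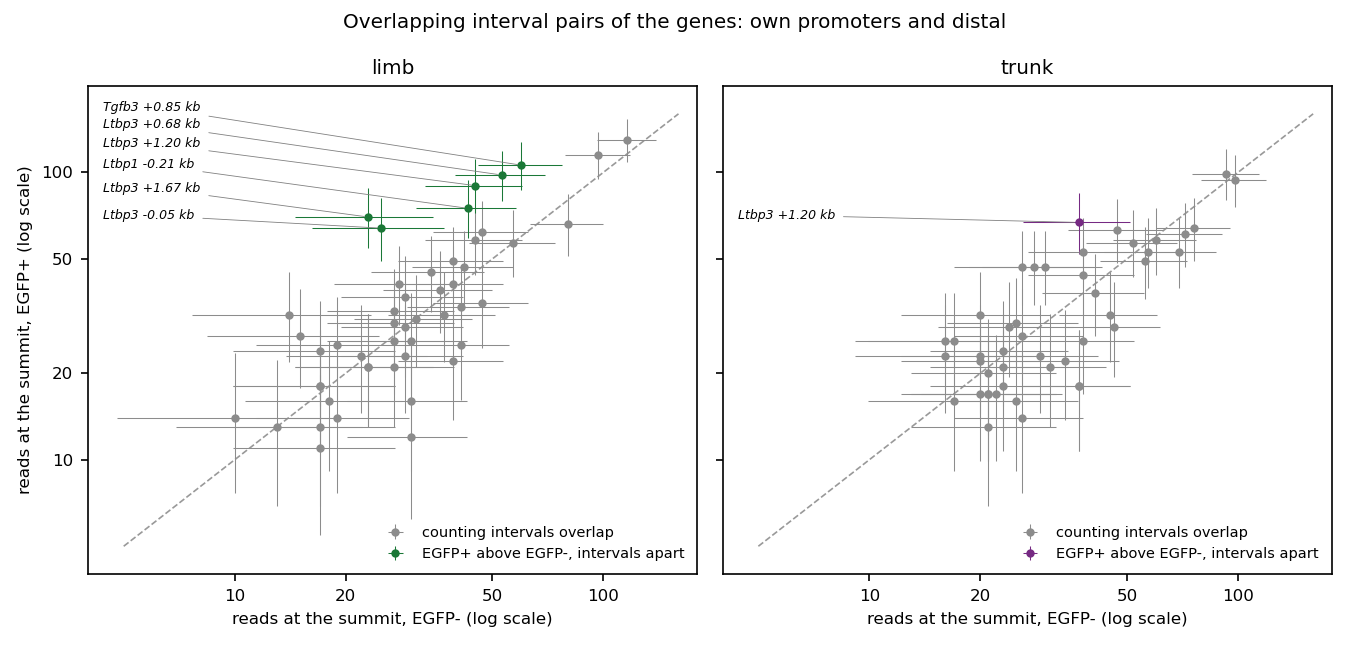
Reads at the summit in EGFP+ (vertical axis) against EGFP- (horizontal axis), both on log scales, for overlapping intervals of the 10 genes, limb on the left (49 pairs) and trunk on the right (46 pairs). The 6 marked limb pairs and the 1 marked trunk pair, with counting intervals apart, all lie on the EGFP+ side.

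By strength within a list, the distal intervals of the 10 genes stood near or somewhat above the middle. Their median place was above 59.5%, 51.3%, 66.3% and 60% of the distal intervals of their list, and 28.4%, 29.6%, 32.8% and 30% of them were in the top 25%. Median widths were 355, 295, 338 and 346 bp, against 331, 294, 324 and 303 bp for all distal intervals. They lay in introns (33, 35, 27 and 26), upstream (19, 23, 14 and 17), downstream (17, 17, 15 and 20) and in exons (5, 6, 5 and 7). For 51, 55, 43 and 46 of them the nearest protein-coding start site was that of the gene itself.

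The rest of the pathway was read from a list of 26 other genes. Of all protein-coding genes, 54.4%, 51.6%, 52.6% and 52.7% had a marked promoter in the 4 lists, and 47.4% in all 4. Groups of 3 genes are too small to be set apart from these shares. All 10 intracellular genes, among them Smad2, Smad3 and Smad4, which carry the signal, and Smad7, Ski and Skil, which limit it, had a marked promoter in every list. Of 10 genes for activation and anchoring of latent TGF-beta, 8, 8, 7 and 7 were marked, the integrin gene Itgav and the fibrillin genes Fbn1 and Fbn2 in every list. Of 3 coreceptors and receptor relatives, 3, 1, 3 and 2 were marked. Eng (endoglin) was marked in both EGFP+ lists and in neither EGFP- list, and Bambi, a decoy receptor, in all 4. Of 3 responsive genes, 3, 3, 3 and 2 were marked. Ccn2, a matricellular gene that responds to TGF-beta, had 12, 1, 10 and 2 distal intervals, of which 11, 0, 10 and 2 were in that fraction alone. The EGFP+-only count of Ccn2 was larger in each tissue than that of any of the 10 genes. Its count of distal intervals was not, as Ltbp3 had 14 in limb EGFP+ and 12 in trunk EGFP+.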

How the data were processed

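H3K27ac ChIP-seq peak lists of 4 cell populations, 1 library each, were used. Per the submitters' processing notes and the study's methods, the authors sampled similar read numbers from the libraries with Seqtk, trimmed adapters with cutadapt 1.18, mapped reads with Bowtie2 2.3.5.1 to GRCm39, filtered them on mapping quality with SAMtools and called peaks and summits with MACS2 2.2.7.1, for each library on its own. The control library and the q threshold are not given in the sources used here. The lowest −log10 q in each list was 1.30. More than 1 read length and more than 1 sonicator are named without being tied to libraries. The deposited score is the authors' MACS2 score, computed from the q-value. The deposited fold is the authors' ratio of the pileup at a summit to the local background of the same library. The deposited −log10 p and −log10 q values are those of the authors' MACS2 run, the latter corrected within each library. Positions are those of the deposited intervals. No score, fold, p or q value of one list was set in ratio to that of another.

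Rows with one start and end were joined into intervals. An interval was kept for a gene if it lay in the gene body or within 100 kb of its start site. It was a promoter interval where it touched a promoter window (up to 2 kb before and 500 bp past any of the 67388 protein-coding start sites), and distal otherwise. An interval was only in 1 fraction where none of the opposite fraction of its tissue overlapped it by 1 bp or more. Within a list, intervals were ranked by their highest −log10 p. Reads at a summit and its local background were recovered from the fold and the −log10 p for 100% of summits. Exact Poisson 95% intervals cover counting error only, and PCR duplicates are not independent molecules. The joining of rows, the promoter calls, the calls of intervals in 1 fraction alone and the recovery of reads were tested on simulated data. The assignment of intervals to genes was not.

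With 1 library per population there was no test, and the share of all genes, intervals, regions or pairs called the same way is given as the background. The genes, the pathway and marker lists, and the rule for the intervals and sequences shown (all 10 genes, their promoter intervals, the strongest distal intervals and those only in 1 fraction, and the regions called in 1 fraction of both tissues) were chosen with earlier results of these data known. Promoter sequences of Tgfb1 and Tgfb2, which lie over untranslated exons, were not printed. Alternatives were a −log10 q of at least 5, only the 20000 strongest intervals by −log10 p in each list, a distance of 50 kb, the window without the rest of the gene body, the nearest start site, an overlap of 50% of the shorter interval, no opposite interval within 1 kb, and the 5′ end of the gene record alone. Promoter windows to 3 kb downstream and merging of intervals within 500 bp were added after seeing the data. Python 3.11.15 with numpy 2.4.6, pandas 2.3.3, scipy 1.17.1 and matplotlib 3.10.9 was used.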

Additional observations from a re-analysis of the deposited data

Results flagged for a closer look

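Tgfb3 had 1 more EGFP+-only than EGFP--only distal interval in limb and 1 fewer in trunk, a difference of 1 against -1. The sign in limb held in 5 of 9 alternatives (range -1 to 3) and that in trunk in 6 of 9 (range -2 to 0). The difference between the tissues was not tested, since each population is 1 library.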

How the results depend on the processing

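Of the values for the 10 genes as a set under the alternatives, 78 stayed within the limits set (a factor of 1.5 for counts), 18 moved and 2 reversed; the cause was not tested, except that the settings below keep fewer intervals by construction. At a −log10 q of at least 5, distal intervals numbered 44 (limb EGFP+), 37 (limb EGFP-) and 31 (trunk EGFP-), with 21 EGFP+-only and 14 EGFP--only in limb and 8 EGFP--only in trunk. EGFP+-only minus EGFP--only intervals then turned from -6 to 7 in limb and from -6 to 12 in trunk, and for Ltbp3 in trunk from -4 to 1. Under the other alternatives the difference over the 10 genes stayed negative. Among the 20000 strongest intervals by −log10 p in each list, distal intervals numbered 22, 29, 28 and 36 and those only in 1 fraction 7, 12, 9 and 15. Within 50 kb, limb EGFP+ had 49 and trunk EGFP- 44 distal intervals. With the nearest start site that of the gene, trunk EGFP- had 46. With no opposite interval within 1 kb, trunk EGFP+ had 14 EGFP+-only intervals. No paired analysis was possible because each population is 1 library and no result comes from a test, so no replicate could be left out either. Depth limits what an absent interval shows: summits below 7 reads were not called, and most intervals only in 1 fraction had fewer than 30 reads.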
